A study of Mus musculus with 4 samples.

Results

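Glycolysis and the response to low oxygen were followed in 33 genes across the cell types of mouse Achilles tendon, in single-cell RNA sequencing libraries with 27040 genes in common. The members were found by gene symbol and comprise 21 transporters and enzymes of glycolysis, 11 targets of the hypoxia response, and Hif1a, which encodes the oxygen-sensitive subunit of the hypoxia-inducible factor. All 33 were among the shared genes. The 4 groups were profiled, each as 1 library of cells pooled from 5 tendons. They were untreated, uninjured Prox1 eGFP (day 0), Prox1 eGFP at days 7 and 21 after the treatment that the labels abbreviate as B/T, and Vegfc CRE at day 7 after B/T. Prox1 is a transcription factor of lymphatic endothelium and eGFP a fluorescent reporter, while CRE is a recombinase whose target in this line is not given in the sources used here, nor are the strain, sex or age of the animals. The labels describe sorting for cells expressing Prox1 and also call the cells unsorted, so shares of cell types are not compared here. The tissue label reads tendon injury for all 4 libraries, while the design text calls the control uninjured. The B/T label is not expanded in the sources used here. The question asked here is which cell types carried the transcripts of glycolysis and of the hypoxia response, and whether these moved together.

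Glycolysis turns glucose into pyruvate in the cytosol. Glucose enters through transporters of the Slc2a family, is phosphorylated by hexokinase, is committed to breakdown by phosphofructokinase, and passes through aldolase, Gapdh, phosphoglycerate kinase, enolase and pyruvate kinase. Pyruvate is then burned in mitochondria or reduced to lactate, which leaves the cell through Slc16a transporters. At low oxygen the prolyl hydroxylases of the Egln family no longer mark Hif1a protein for destruction, and the stabilized factor raises many glycolytic genes together with Adm, Bnip3, Pdk1 and others. Because this control acts on the Hif1a protein, the level of Hif1a mRNA does not by itself report it.

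The hypoxia-inducible factor binds the letters ACGTG or GCGTG, and the promoters of 5 members on which the results below turn are shown with these letters, read on either strand, in capitals. Each sequence gives the 150 bases before 1 RefSeq transcription start on build GRCm38.p6, 5′ to 3′ on the gene's own strand. Several starts are listed for 4163 genes, and only the first entry of each gene was used. The Slc16a3 and Ldha windows lie inside the annotated genes, which begin at 120948480 and 46841475. They are the lactate exporter Slc16a3 (chr11:120948917-120949066, plus strand), the lactate dehydrogenase subunit Ldha (chr7:46845654-46845803, plus), the glucose transporter Slc2a1 (chr4:119108595-119108744, plus), the mitophagy receptor Bnip3 (chr7:138909507-138909656, minus) and the vasoactive peptide precursor Adm (chr7:110627507-110627656, plus).
Slc16a3: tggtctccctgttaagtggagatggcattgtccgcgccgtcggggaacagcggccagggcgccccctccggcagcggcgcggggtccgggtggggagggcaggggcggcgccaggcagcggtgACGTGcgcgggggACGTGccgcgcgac
Ldha: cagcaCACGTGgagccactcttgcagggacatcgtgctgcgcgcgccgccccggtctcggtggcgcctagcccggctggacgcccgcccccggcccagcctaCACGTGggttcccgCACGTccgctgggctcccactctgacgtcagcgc
Slc2a1: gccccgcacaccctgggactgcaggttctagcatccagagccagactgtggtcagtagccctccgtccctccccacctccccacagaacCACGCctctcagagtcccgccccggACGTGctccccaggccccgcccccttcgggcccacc
Bnip3: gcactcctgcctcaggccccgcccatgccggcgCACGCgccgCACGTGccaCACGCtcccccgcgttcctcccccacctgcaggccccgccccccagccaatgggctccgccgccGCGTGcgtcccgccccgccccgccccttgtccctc
Adm: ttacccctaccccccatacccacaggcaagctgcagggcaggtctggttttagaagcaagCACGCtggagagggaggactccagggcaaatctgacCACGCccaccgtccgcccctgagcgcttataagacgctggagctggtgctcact
Slc16a3 carried ACGTG at 2 places and Ldha at 5, where the palindrome CACGTG counts once on each strand. Slc2a1 and Bnip3 held both versions and Adm held only GCGTG, at 2 places. In the 250 bases before the start, 25 of the 30 members with a RefSeq promoter entry (83.33%) held at least 1 of the 2 versions, comprising 15 of 20 glycolysis members, all 9 listed hypoxia members and Hif1a. Among all 27025 promoters the share was 38.6%. ACGTG by itself was found in 17 of the 30 members and in 16.57% of all promoters. A match of these letters is a description of the sequence, and the members were chosen in part as known targets. Entries for Slc2a3, Bnip3l and Ndrg1 were not used here.

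After filtering, 18101 of 21183 barcodes were analysed, with 686, 4682 and 6062 cells from days 0, 7 and 21 of Prox1 eGFP and 6671 from Vegfc CRE. The libraries held 6.76e+06, 5.93e+07, 5.99e+07 and 9.26e+07 UMIs (unique molecular identifiers, 1 per captured transcript), and median UMIs per cell lay between 7036.5 and 8437.5. Pairs of libraries shared 1 to 10 cell barcodes. Clusters of cells were named from fixed marker genes, for example lymphatic endothelial-like cells from 6 to 8 of 9 markers, neutrophil-like cells from 6 of 7, tenocyte-like cells from 7 of 8 and mature muscle-like cells from 9 of 9. All class names below stand for such marker-based likeness and are given without the suffix. Cells in clusters without a name made up 12.54%, 0.6835%, 2.425% and 16.77% of the libraries in the same order. The members and the related gene lists were kept out of the genes that formed the clusters.

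Levels are given in CPM (counts-per-million), the UMIs of a gene scaled to all UMIs of a class in 1 library, for the 32 combinations of class and library with at least 30 cells. Ranges in parentheses after a value are exact 95% intervals, which cover counting error only. Each group being a single library, animal-to-animal spread is not known, so no p-value is given and members are counted by size, as at least 2-fold higher or lower among genes with 20 or more UMIs over both sides. Beside each such count of the main setting stands the share of all tested genes past the same fold. That share is not given for single clusters or alternative settings. Their counts show only how far the main counts move. TMM scaling, which centres on the bulk of genes, placed the middle of all genes between −1.283 (mature muscle against the other cells) and 0.2118 (lymphatic endothelium against the other cells) on the log2 scale, with −0.8625 for neutrophils. Library depth, class and preparation are shared by all genes of a column, so the order of classes below is a description.

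**Figure D1:**
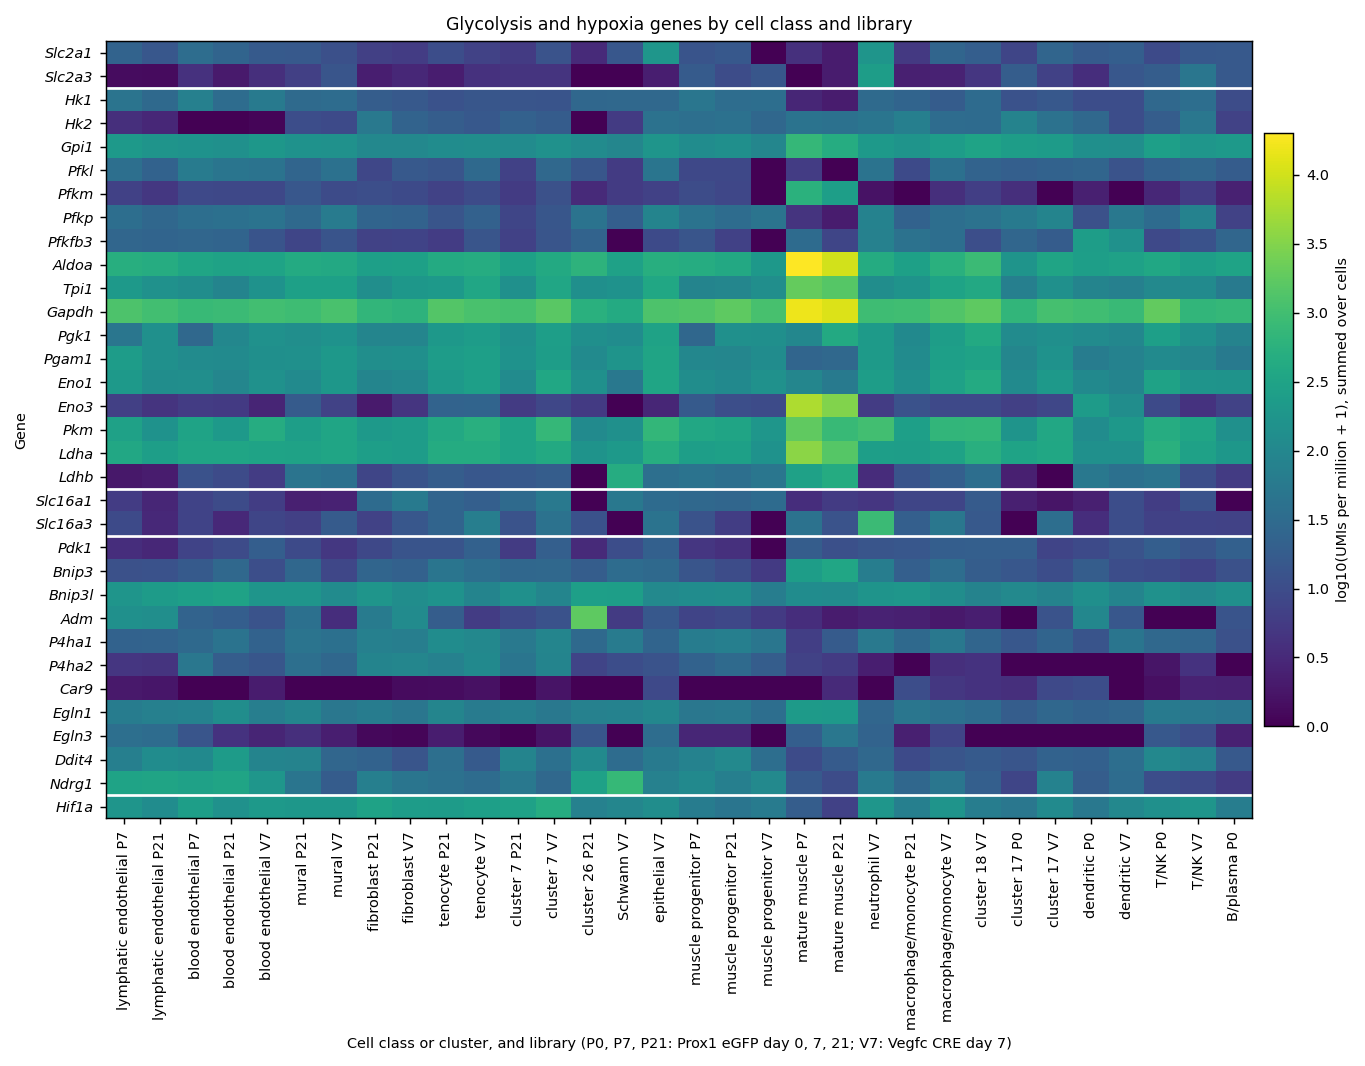
Level of each member (rows, grouped by role) in each class and library with at least 30 cells (columns), on a log scale of CPM. Mature muscle stands out in the enzyme rows, neutrophils in the rows of Slc2a3 and Slc16a3 and, with epithelial cells, of Slc2a1, and the unnamed cluster 26 in the row of Adm.

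Which cells carried the most glycolytic and the most hypoxia transcripts? The orders differed. The summed level of the 21 glycolysis members was highest in mature muscle, with 51021 CPM in the day 7 and 30610 CPM in the day 21 library of Prox1 eGFP, and lowest in B/plasma cells at day 0, at 2067 CPM. After mature muscle came cluster 18 (5917 CPM, unnamed, led by Acp5 and Ctsk), neutrophils (5249 CPM) and epithelial cells (4964 CPM), all in Vegfc CRE. The summed level of the 11 hypoxia members was highest in cluster 26 at day 21, at 2513 CPM, followed by Schwann cells (1247 CPM), blood endothelium at day 21 (1095 CPM) and lymphatic endothelium at day 21 (951 CPM). Mature muscle, with the highest glycolysis sums, held 656 and 789 CPM of hypoxia members. Across the 32 combinations Spearman's rho between the 2 sums was −0.02, and it was −0.25 over the 10 classes of Prox1 eGFP day 21 and −0.23 over the 14 of Vegfc CRE. With Aldoa, Gapdh, Pgk1, Bnip3l and Ndrg1 left out of the sums the 3 values were 0.07, −0.15 and 0.12. These values are descriptions, since classes of a library share its preparation. Most of each sum came from few genes: without Aldoa, Gapdh and Pgk1 the mature muscle sum at day 7 was 15178 CPM, which was still the highest. Without Bnip3l and Ndrg1 the hypoxia sum was still highest in cluster 26 at 1955 CPM, of which Adm gave 1696 CPM. The order below it changed. Mature muscle then followed at days 21 and 7 (659 and 519 CPM), before blood endothelium at day 21 (471 CPM), and Schwann cells held 228 CPM.

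**Figure D2:**
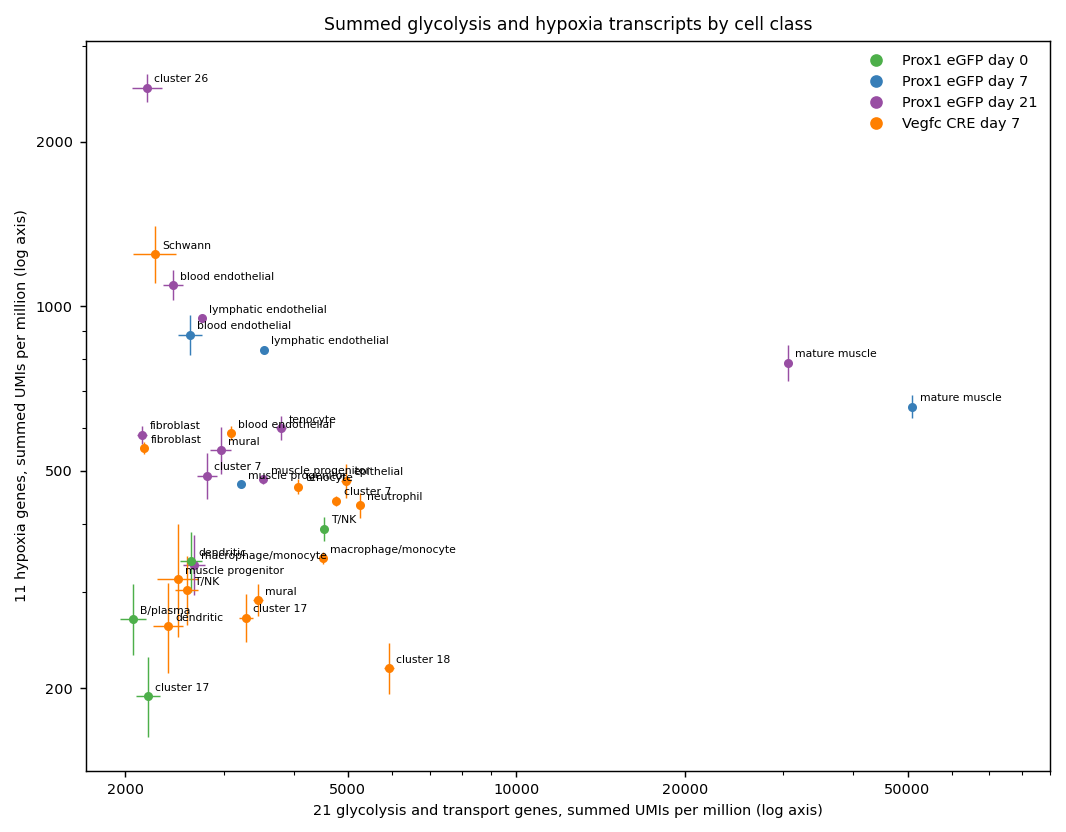
Summed CPM of the 21 glycolysis members against summed CPM of the 11 hypoxia members, both axes on a log scale, with 1 point per class and library and exact 95% Poisson intervals as lines. Mature muscle lies far to the right, with hypoxia sums of 656 and 789 CPM, and cluster 26 lies highest at a low glycolysis sum.

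Glucose entry was carried by different transporters in different cells. Slc2a1, the widely used basal glucose transporter, was highest in epithelial cells (181 CPM, 161 to 204) and neutrophils (177 CPM, 162 to 192) of Vegfc CRE, whose intervals overlap. It stood at 22.0 and 13.8 CPM in lymphatic endothelium at days 7 and 21, at 12.04 and 14.3 CPM in muscle progenitors, and at 2.98 and 1.14 CPM in mature muscle. Slc2a3, a high-affinity glucose transporter, was highest in neutrophils at 251 CPM (234 to 270), followed at a distance by T/NK cells of Vegfc CRE at 48.1 CPM. Of all Slc2a1 and Slc2a3 UMIs, Slc2a3 held 58.7% in neutrophils (56.0 to 61.4%), 68.0% and 76.9% in T/NK cells of day 0 and Vegfc CRE, 57.8% and 38.7% in muscle progenitors at days 7 and 21, but 1.69% and 2.46% in lymphatic endothelium and 5.99% in macrophages of Vegfc CRE. Muscle-fibre glucose uptake relies largely on Slc2a4, which is not a member.

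Hexokinase, which traps glucose as its phosphate, was made up of Hk1 and Hk2 in shares that differed among classes. Shares within a set of isozymes count molecules by their 3′ ends and do not depend on transcript length. Other annotated genes share 75-base stretches with some members, 6 with Eno1, 4 with Ldha and 1 with Ldhb. Their part in the shares was not tested. Hk2 (chromosome 6, 82725025 to 82774454, minus strand of mm10), the inducible form, was at or near 0 in blood endothelium, where it held 0 of 47 hexokinase UMIs at day 7 of Prox1 eGFP (up to 7.55%), 0 of 30 at day 21 (up to 11.6%) and 1 of 407 in Vegfc CRE, or 0.246% (0.00622 to 1.36%). In lymphatic endothelium the Hk2 share was 6.05% (4.65 to 7.72%) and 6.59% (4.63 to 9.05%) at days 7 and 21. Hk1, the housekeeping form, made up the rest in both endothelial classes, and stood at 55.2 CPM in blood endothelium of Vegfc CRE. Mural cells also held mostly Hk1, with Hk2 at 24.1% (10.3 to 43.5%) at day 21 and 20.3% (13.6 to 28.5%) in Vegfc CRE. Mature muscle had the reverse, with Hk2 at 95.9% and 97.1%, and fibroblasts (75.1% at day 21, 60.3% in Vegfc CRE) and macrophages (75.4% and 65.2%) lay between. Muscle progenitors were close to even, at 42.9% and 54.7%.

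Phosphofructokinase, the committed step, and enolase showed muscle forms in mature muscle. Pfkm, the muscle form, held 98.5% and 99.6% of phosphofructokinase UMIs in mature muscle at days 7 and 21, against 14.9% and 15.4% in muscle progenitors, where the platelet form Pfkp led with 72.2% and 68.8%. Pfkl, the liver form, made up 47.1% and 41.4% in lymphatic endothelium and 50.04% in macrophages of Vegfc CRE. Neutrophils carried Pfkp at 65.1% and Pfkm at 0.525% (2 of 381 UMIs). Eno3, the muscle enolase (chromosome 11, 70657202 to 70662513, plus strand), held 98.5% and 98.1% of enolase UMIs in mature muscle but 10.9% and 8.24% in muscle progenitors. The muscle gene Ckm stood at 31839 CPM in mature muscle, 53.6 CPM in muscle progenitors and 17.8 CPM in lymphatic endothelium at day 7. The part of free muscle RNA in the low Eno3 and Pfkm levels of other cells was not tested.

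Eno3 had a second site in dendritic cells. Its levels were 234 CPM in uninjured tendon and 130 CPM in Vegfc CRE, or 67.8% (61.7 to 73.5%) and 60.2% (49.5 to 70.2%) of enolase UMIs, in libraries where Ckm was at 0 and 4.64 CPM in those cells. In the same cells Pfkfb3, which makes the activator of phosphofructokinase, was at 244 CPM (210 to 283) and 151 CPM, its highest levels among all classes. In cluster 24, the dendritic cluster led by Ccl22, Ccr7 and Ccl17, Eno3 was at 255 and 218 CPM and Pfkfb3 at 266 and 253 CPM. Ldha did not share this pattern, and at 142 and 144 CPM had its lowest levels in these cells.

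Lactate dehydrogenase and lactate export completed the pathway. Ldha, the form that favours lactate, was highest in mature muscle (3585 and 1485 CPM), followed by T/NK cells of day 0 at 548 CPM. Ldhb, the form that favours pyruvate, led only in Schwann cells, at 68.7% of lactate dehydrogenase UMIs (60.5 to 76.1%), and held 23.1% in mature muscle at day 21 and 7.61% at day 7. Lymphatic endothelium had almost none, at 0.235% and 0.433%. Slc16a3 (chromosome 11, 120948480 to 120960868, plus strand), a low-affinity lactate exporter, held 99.5% of the Slc16a1 and Slc16a3 UMIs in neutrophils, 87.9% in macrophages and 78.3% in tenocytes of Vegfc CRE. Slc16a1, the more widely expressed carrier, led in fibroblasts and muscle progenitors, where Slc16a3 held 16.1 to 19.6% and 16.6 to 29.1%.

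**Figure D3:**
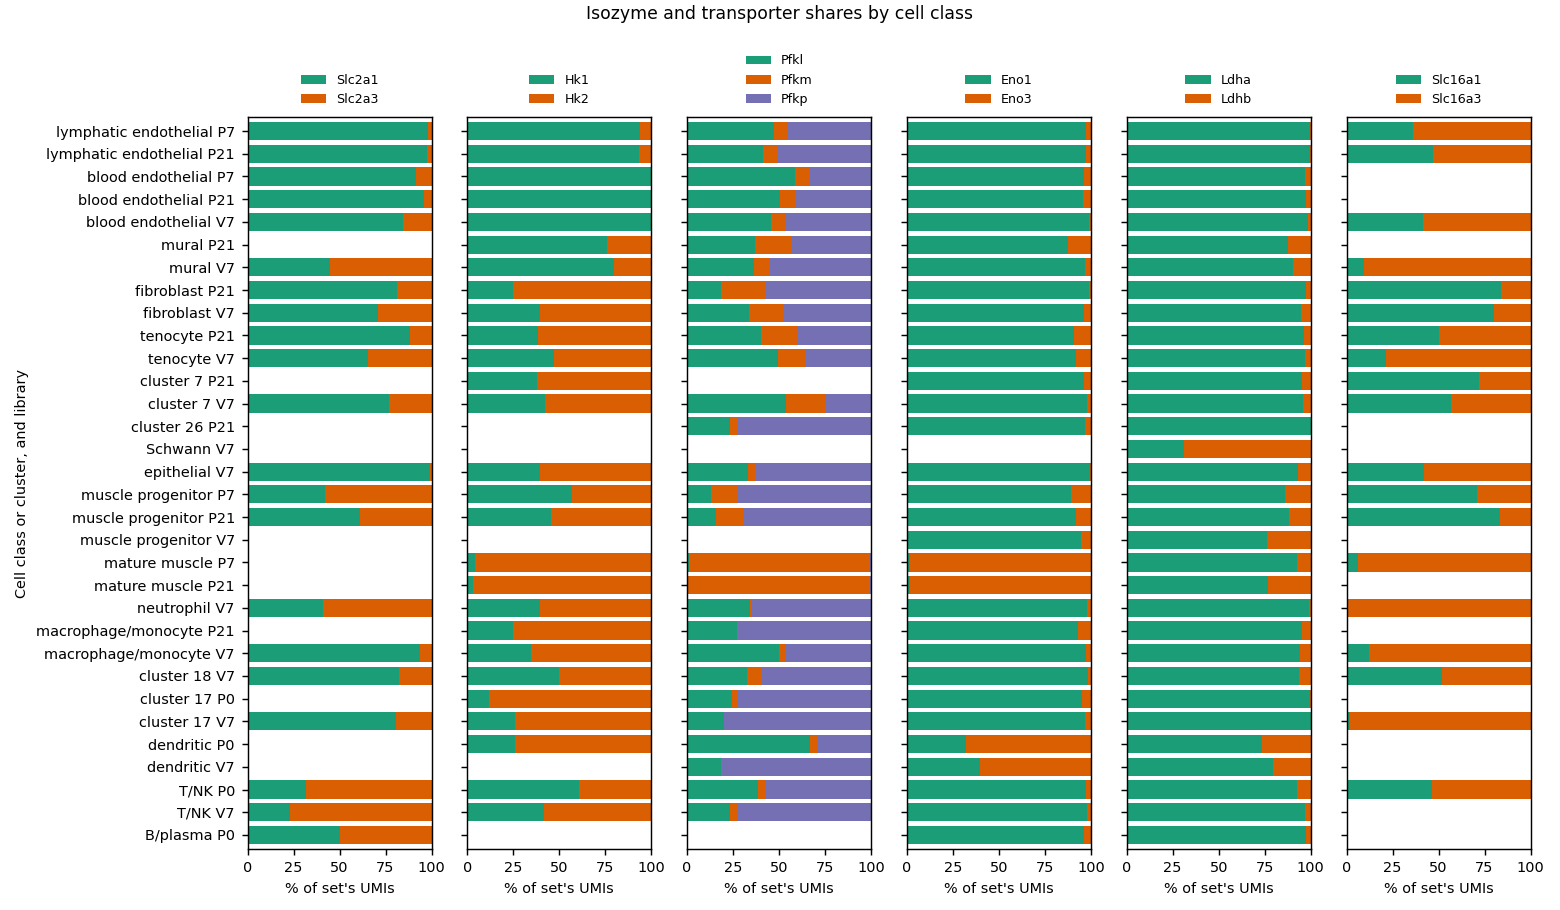
Share of each form within its isozyme or transporter pair or set (stacked bars, percent of the set's UMIs) by class and library, left blank where a set has under 20 UMIs. Hk2 is near 0 in blood endothelium, Pfkm and Eno3 are near 100% in mature muscle, and Slc16a3 is highest in neutrophils.

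The hypoxia members had their highest levels in several different classes. Adm (chromosome 7, 110627661 to 110629820, plus strand), which encodes the vessel-relaxing peptide adrenomedullin, was highest in cluster 26 of day 21 at 1696 CPM (1578 to 1821), a cluster of 69 cells in that library led by Cldn11, Sbspon and Zic2 in which Adm is also among the 10 leading genes. It was found in 68.1% of these cells, and in 60.3% after thinning each cell to 2000 UMIs. Lymphatic endothelium followed at 141 and 131 CPM, then fibroblasts of Vegfc CRE at 118 CPM and dendritic cells of day 0 at 95.8 CPM. An Adm UMI was found in 45.6% of lymphatic endothelial cells at day 7 and 28.3% at day 21, and in 16.6% and 13.6% after thinning. In muscle progenitors of day 7 the share was 4.27%, or 1.23% after thinning, at a median of 7731 UMIs against 18930 in lymphatic endothelium. Macrophages of Vegfc CRE held 0.936 CPM of Adm and neutrophils 1.61 CPM.

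Ndrg1, a stress-responsive gene needed for the upkeep of myelin, was highest in Schwann cells at 758 CPM (646 to 884), and stood at 307 and 321 CPM in lymphatic and 295 and 323 CPM in blood endothelium at days 7 and 21. Bnip3, which targets mitochondria for removal, was highest in mature muscle at 245 and 358 CPM, then in neutrophils at 65.2 CPM. Egln1, the main oxygen sensor, was also highest in mature muscle (217 and 202 CPM). Egln3, the inducible sensor, was found in mature muscle (18.3 and 49.2 CPM), lymphatic endothelium (36.6 and 32.0 CPM), epithelial cells (33.6 CPM) and neutrophils (22.3 CPM), and was at or under 14.1 CPM in all other classes. P4ha1 and P4ha2, subunits of collagen prolyl hydroxylase, were high in tenocytes and fibroblasts. P4ha1 was at 123 and 102 CPM in tenocytes of day 21 and Vegfc CRE, and P4ha2 at 76.9 and 108 CPM. P4ha2 was at 85.9 and 94.9 CPM in fibroblasts and at 1.29 CPM in neutrophils.

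Ddit4, which restrains mTOR signalling, was highest in blood endothelium of day 21 at 227 CPM (197 to 260), with lymphatic endothelium at 122 CPM and muscle progenitors at 106 CPM on that day. Bnip3l, a relative of Bnip3, varied least among the hypoxia members, from 66.1 to 301 CPM. Pdk1, which closes the entry to the mitochondrial cycle, reached 20.8 CPM in tenocytes of Vegfc CRE. Car9, a carbonic anhydrase often used as a marker of hypoxia, stayed low, at no more than 9.59 CPM (7 UMIs, in macrophages of day 21). Hif1a itself was highest in cluster 7, unnamed because fibroblast and tenocyte markers were close, at 455 CPM in Vegfc CRE. It stood at 297 and 242 CPM in fibroblasts of day 21 and Vegfc CRE and at 233 and 264 CPM in tenocytes. Mature muscle had the lowest levels, at 17.9 and 5.72 CPM.

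Mature muscle, with 129 and 106 cells in days 7 and 21 of Prox1 eGFP, differed from the other cells in most members. Against the other cells of day 7, 14 members were at least 2-fold higher and 13 lower of 33, where 9.35% and 56.8% of 14206 genes were. Of the 21 glycolysis members 11 were higher and 7 lower (median log2 ratio 1.49, all genes −1.35), and of the 11 hypoxia members 3 were higher and 5 lower (median −0.27). With TMM scaling the members split 18 higher and 11 lower. Aldoa stood at 20167 against 478 CPM, a 42.2-fold difference (41.5 to 42.8), Eno3 at 6015 against 11.3 CPM (533-fold, 492 to 579) and Pfkm at 554 against 7.58 CPM (73.1-fold, 65.5 to 81.8). These are the aldolase, enolase and phosphofructokinase forms that muscle uses. Gapdh was 11.8-fold and Tpi1, the triose isomerase, 14.5-fold higher. Bnip3 was 18.4-fold higher (16.5 to 20.5), Pdk1 4.83-fold and Egln1 3.94-fold.

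The members lower in mature muscle were forms and targets that other cells used. Hk1 stood at 1.86 against 46.3 CPM (24.9-fold lower, 10.6 to 76.6) and Pgam1, a phosphoglycerate mutase, at 24.6 against 159 CPM. Adm was 24.6-fold, Ndrg1 12.6-fold, Ddit4 8.81-fold and Hif1a 6.28-fold lower (4.73 to 8.53). Slc2a3 had no UMI, at least 8.79-fold lower against a floor of 3 UMIs. Among the 22 other glycolysis genes, Pgam2, the muscle mutase, had the largest log2 ratio, 9.72, and of 22 genes of the mitochondrial cycle and respiration 16 were higher and 0 lower. At day 21 most of the leading enzymes were lower than at day 7, with Aldoa at 10231, Eno3 at 3127 and Ldha at 1485 CPM, while Bnip3, Ldhb and Egln3 were higher. Median UMIs per cell were 14853 at day 7 and 5600 at day 21, Ckm was 31839 and 16054 CPM, and the median mitochondrial share was 0.024% and 0.245%; their part in this was not tested.

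Neutrophils of Vegfc CRE day 7 (1346 cells) had their largest folds above the other cells in transporters at both ends of the pathway. Against the other cells of that library 8 members were at least 2-fold higher and 7 lower of 33, where 12.9% and 50.9% of 15316 genes were. TMM scaling gave 13 higher and 5 lower. Of the glycolysis members 6 were higher and 5 lower (median 0.07, all genes −1.06), and of the hypoxia members 2 were higher and 2 lower. Slc2a3 stood at 251 against 3.53 CPM (71.1-fold, 61.9 to 81.9), Slc16a3 at 853 against 36.1 CPM (23.6-fold, 22.4 to 24.9) and Slc2a1 at 177 against 16.9 CPM (10.4-fold, 9.41 to 11.5). Both glucose importers and the lactate exporter Slc16a3 thus stood above the other cells. Slc16a3 was found in 71.9% of neutrophils and Slc2a3 in 32.3%, or 70.6% and 30.3% after thinning, which left out 643 of the cells. In macrophages, at a median of 7997 UMIs against 2056.5, the thinned shares were 8.53% and 0.371%, and in blood endothelium 0.985% and 0.821%.

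Other members were also higher in neutrophils. Pfkfb3 was 4.45-fold (3.86 to 5.12), Pfkp 2.77-fold and Hk2 2.30-fold higher, and among hypoxia members Egln3 was 8.29-fold (6.22 to 10.9) and Bnip3 2.57-fold higher. Aldoa, Pgk1, Pgam1 and Eno1 lay within 1.05-fold of the other cells, Pkm, the pyruvate kinase, was 1.83-fold higher, and Tpi1 was 2.25-fold lower. P4ha2 (43.3-fold lower, 16.9 to 159), Adm (15.3-fold), Pfkm, Slc16a1 and Ldhb were also lower. Of 22 genes of the mitochondrial cycle and respiration 18 were lower and 0 higher, summing to 1100 against 3563 CPM. Immediate early and dissociation genes were 23031 against 5421 CPM in sum, with 10 of 16 higher and 2 lower; their part in the member levels was not tested.

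Macrophages of Vegfc CRE (1908 cells) differed from the other cells of the library in few members. Of 33, 3 were at least 2-fold higher and 6 lower, where 12.4% and 35.3% of genes were. With each cell weighted equally it was 1 and 8, and 1 was also higher after thinning and with libraries clustered alone. Pfkfb3 was 2.27-fold higher (2.04 to 2.51), at 34.3 against 15.2 CPM. Car9 (3.98 against 0.972 CPM) and Egln3 (6.55 against 2.60 CPM) were the other 2, both at low levels, and Egln3 turned lower when cells were weighted equally, in both doublet settings, at resolution 2.0 and with libraries clustered alone. Adm (32.0-fold), P4ha2 (23.5-fold), Slc2a3 (10.2-fold), Slc16a1, Pfkm and Ddit4 were lower. The 3 macrophage clusters differed widely in glycolysis. The sum was 6116 CPM (6063 to 6169) in cluster 8, led by Arg1, F7 and Gpnmb and holding Trem2, 3732 CPM (3677 to 3787) in cluster 9, led by Chil3 and holding Ly6c2, and 2046 CPM (2001 to 2091) in cluster 11, led by Cd209f and Cd163. The hypoxia sums were 425, 275 and 267 CPM.

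**Figure D4:**
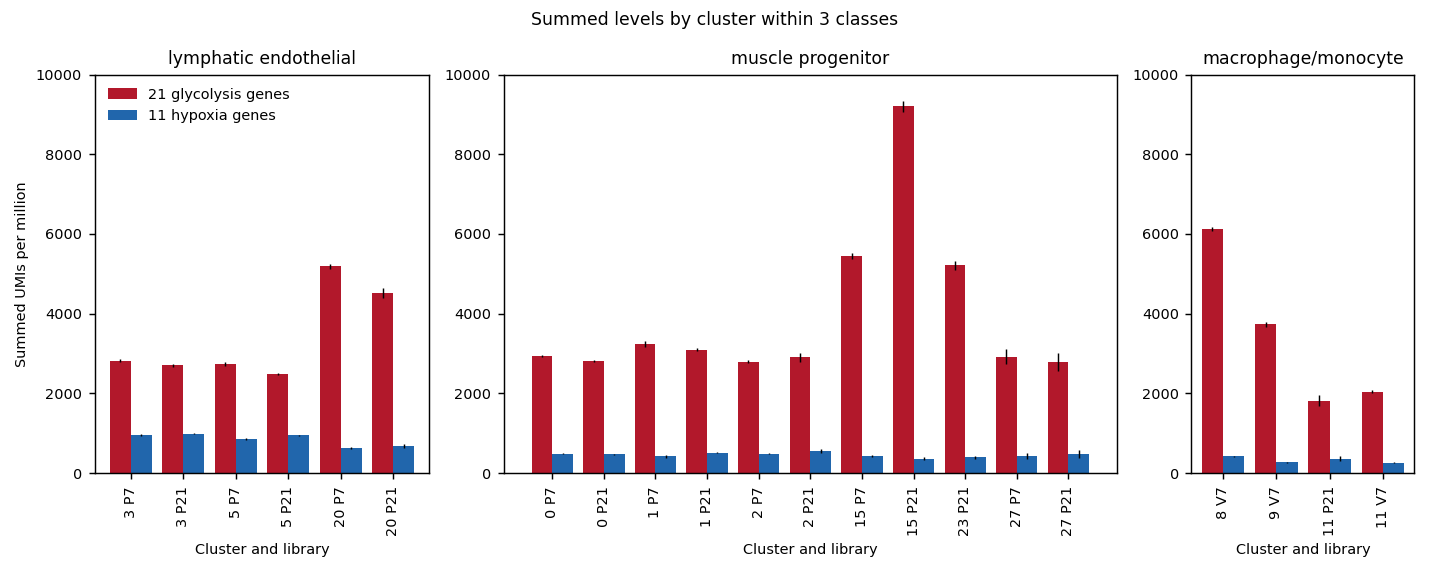
Summed CPM of the 21 glycolysis members (red bars) and of the 11 hypoxia members (blue bars) in the single clusters of lymphatic endothelium, muscle progenitors and macrophages (a panel each), by library, with exact 95% Poisson intervals as lines. P7 and P21 stand for Prox1 eGFP days 7 and 21 and V7 for Vegfc CRE day 7. Macrophage cluster 8, the dividing lymphatic cluster 20 and muscle progenitor cluster 15 have the highest glycolysis sums of their classes.

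Set beside the 67 macrophages of Prox1 eGFP day 21, macrophages of Vegfc CRE had more members higher than lower. Line and day differ between these libraries and cannot be told apart, here and in the other comparisons of Vegfc CRE with day 21. Of 32 members 9 were at least 2-fold higher and 2 lower, where 7.01% and 7.55% of genes were, and the glycolysis members (7 higher, 1 lower) had a median log2 ratio of 0.64 against −0.005 for all genes. With the doublet caller's own calls and at resolution 2.0, 5 were higher. Pkm stood at 680 against 271 CPM (2.51-fold, 2.18 to 2.90), Pfkl at 37.2 against 8.22 CPM, Slc16a3 at 49.7 against 19.2 CPM, and Hif1a at 171 against 69.8 CPM (2.44-fold, 1.85 to 3.29). Pgk1, Pgam1 and Eno1 were 2.09- to 2.26-fold higher, and Slc2a1 6.04-fold with 3 UMIs at day 21 (2.05 to 29.4). Egln3 was counted as higher on 1 UMI at day 21 (4.79-fold, 0.842 to 191) and was level or lower in 4 of the alternatives. Hk2 was 2.24-fold lower (1.65 to 2.98), and Car9 2.41-fold lower with an interval that spans 1. The makeup of the class differed, with clusters 8, 9 and 11 holding 11, 22 and 34 cells at day 21 and 739, 697 and 472 in Vegfc CRE. Within cluster 11 alone 2 of 26 members were higher and 2 lower, the glycolysis median was 0.11, and its sum was 1818 CPM at day 21 against 2046 CPM.

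T/NK cells, the largest class in the day 0 library (401 of 686 cells), had higher Pkm, Ldha and Gapdh than its other cells. Against the other cells of day 0, 9 of 30 members were at least 2-fold higher and 7 lower, where 12% and 21% of 10732 genes were, and 4 were lower after thinning. The glycolysis members split 6 higher and 4 lower (median 0.53, all genes −0.003) and the hypoxia members 2 higher and 3 lower. Pkm stood at 466 against 142 CPM (3.28-fold, 2.94 to 3.68), Ldha at 548 against 201 CPM (2.73-fold) and Gapdh at 1882 against 761 CPM (2.47-fold), with Pgk1, Eno1, Hk1 and Hif1a also higher. Egln3 was 9.49-fold (3.50 to 36.0, on 4 UMIs in the other cells) and Ddit4 4.64-fold higher. Pfkfb3 was 10.6-fold, Eno3 8.30-fold and Ndrg1 4.63-fold lower, and Adm had no UMI in T/NK cells, at least 50.7-fold lower. Pfkfb3, Eno3 and Adm were all high in the 60 dendritic cells on the other side of this comparison. All 15 division genes were higher in T/NK cells, at 2086 against 263 CPM in sum.

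In the main setting, fibroblasts of Vegfc CRE (667 cells) had many glycolysis members lower than the other cells, while hypoxia members went both ways. Against the other cells 3 members were at least 2-fold higher and 13 lower, where 8.33% and 22.9% of genes were. Of the glycolysis members 1 was higher and 10 were lower (median −0.85, all genes −0.23). Of the 11 hypoxia members 2 were higher and 3 lower (median −0.23). Eno1 stood at 101 against 290 CPM (2.87-fold lower, 2.71 to 3.04), Pkm at 241 against 636 CPM and Slc16a3 at 13.7 against 77.1 CPM (5.64-fold lower), while Slc16a1 was 2.31-fold higher. Adm was 17.1-fold higher (15.4 to 19.1), at 118 against 6.87 CPM, and P4ha2 2.04-fold. Egln3, at 2 UMIs, Car9 and Ddit4 were lower. The count of lower members fell from 13 to 7 with members among the clustering genes or a stricter cell filter. With doublets kept or at resolution 2.0 it was 8, so the excess over all genes depended on the setting. With doublets kept Eno1 and Gapdh turned from lower to level, at log2 ratios of 0.069 and 0.06. Against fibroblasts of day 21 (258 cells) 3 members were higher and 1 lower of 31, where 4.68% and 3.68% of genes were. The higher count was 0 after thinning, 8 under the stricter filter, at resolution 2.0 and with members among the clustering genes, and 9 with doublets kept, and the lower count rose to at most 2. Adm was 1.96-fold higher (1.72 to 2.24), and the members past 2-fold were Eno3 (5 UMIs at day 21, lower when libraries were clustered alone), Slc16a3 and Pfkl above and Hk2 below, at 22.3 against 53.6 CPM (2.40-fold lower, 2.02 to 2.86).

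Tenocytes, the cells that build tendon matrix, had 2 members at least 2-fold higher and 6 lower than the other cells of Vegfc CRE, where 5.91% and 23.9% of genes were. At both other resolutions and with the doublet caller's own calls 0 were higher, and 11 or 12 were lower with cells weighted equally, at resolution 0.5 and with the caller's own calls. The higher pair was Eno3 (23.5 against 7.88 CPM, 2.98-fold) and P4ha2 (108 against 47.2 CPM, 2.28-fold, 2.12 to 2.45). At resolution 0.5 and with the doublet caller's own calls the class was made of other clusters and both turned lower, P4ha2 to log2 ratios of −1.65 and −1.68. Adm, Egln3, Slc2a1, Slc2a3, Car9 and Ddit4 were lower. Against tenocytes of day 21 (93 cells) 4 of 31 members were higher and 2 lower, where 7.36% and 7% of genes were. The higher count ran from 2 with the doublet caller's own calls and at resolution 0.5 to 7 at resolution 2.0 and 11 with libraries clustered alone, and the lower count from 0 after thinning to 4 with libraries clustered alone. Slc16a3 stood at 69.0 against 23.4 CPM (2.95-fold, 2.24 to 3.94), Pfkl at 28.7 against 12.7 CPM and Pfkfb3 at 12.5 against 4.93 CPM, and Slc2a3 was counted on 3 UMIs at day 21 (2.55-fold, 0.787 to 13.1) and turned lower at resolution 2.0. Adm was 3.66-fold lower (2.34 to 5.72) and Ddit4 2.42-fold lower. Slc16a3 was also higher in Vegfc CRE in fibroblasts (2.28-fold), macrophages (2.59-fold) and, on 2 UMIs at day 21, blood endothelium (3.27-fold, 0.860 to 27.7). The Vegfc CRE library also held neutrophils, the class with the highest Slc16a3, and their marker S100a8 was at 36873 CPM in neutrophils and 50.7, 59.4, 87.1 and 57.6 CPM in tenocytes, fibroblasts, macrophages and blood endothelium, against 0 to 17.8 CPM in those of day 21. The part of free neutrophil RNA was not tested.

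Blood endothelium of Vegfc CRE (638 cells) had higher Hk1, Ndrg1 and Ddit4 than the other cells. These 3 were at least 2-fold higher and 11 members lower, where 12.6% and 23.5% of genes were. The glycolysis members split 1 higher and 6 lower of 21, and the hypoxia members 2 higher and 5 lower of 11. Hk1 stood at 55.2 against 16.6 CPM (3.33-fold, 2.97 to 3.73), Ndrg1 at 181 against 41.3 CPM (4.37-fold) and Ddit4 at 87.0 against 24.1 CPM (3.60-fold). Hk2 was 171-fold lower on 1 UMI (30.7 to 6776), Slc16a3 10.4-fold, P4ha2 4.44-fold and P4ha1 3.22-fold lower. Against blood endothelium of day 21 (103 cells), 4 of 29 members were higher and 2 lower, where 9.38% and 8.86% of genes were. With each cell weighted equally it was 4 and 4, and 2 were higher with doublets kept or with the doublet caller's own calls. Pkm was at 465 against 214 CPM (2.17-fold, 1.88 to 2.52), and Pdk1 2.09-fold higher. Slc2a3 and Slc16a3 were counted on 1 and 2 UMIs at day 21, and Slc2a3 turned lower under the doublet caller's own calls. Ddit4 (87.0 against 227 CPM, 2.61-fold lower) and Bnip3 (9.92 against 27.0 CPM, 2.73-fold lower) were below, and the hypoxia median was −0.84 against −0.04 for all genes. Immediate early and dissociation genes moved with them, at 4887 against 12996 CPM in sum with 13 of 16 lower. Division genes went the other way, at 667 against 136 CPM in sum with 13 of 15 higher. The class held 481 and 157 cells of clusters 10 and 19 against 50 and 53. The part of these differences in the member levels was not tested. In clusters 10 and 19 taken alone the hypoxia medians were −0.75 and −0.53.

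Between day 21 and day 7 of Prox1 eGFP, blood endothelium could be compared only roughly, since day 7 held 33 such cells. Of 23 members 2 were at least 2-fold higher and 2 lower, where 5.22% and 8.97% of genes were, and weighting cells equally gave 3 and 1. Ddit4 stood at 227 against 109 CPM (2.07-fold, 1.57 to 2.76). Pgk1 was the other. Over all cells it was at 38.0 CPM in the day 7 library against 147 to 211 CPM in the other 3, and the gene list of day 7 differs from theirs, among other entries in holding Pgk1-rs7, a copy with 326 identical 75-base stretches and 34 UMIs. The part of the gene list in the lower Pgk1 was not tested, and nothing is read from Pgk1 between these days. Hk1 (2.30-fold) and P4ha2 (2.93-fold, 1.56 to 5.73) were lower. Clusters 10 and 19 held 29 and 4 cells of this class at day 7 and 50 and 53 at day 21. Division genes summed to 136 CPM at day 21 against 644 CPM at day 7, with 7 of 9 lower. The part of either in the member levels was not tested.

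In lymphatic endothelium, 936 cells at day 7 and 1793 at day 21, few members were 2-fold apart between the days, as was the case for all genes. Of 32 members 1 was at least 2-fold higher and 2 lower, where 2.88% and 6.71% of 12618 genes were, and the higher member was Pgk1, set aside as above. All 3 were among the 20 glycolysis members tested, and 0 of 11 hypoxia members passed 2-fold. The median log2 ratio was −0.57 for glycolysis and 0.04 for hypoxia members, against −0.16 for all genes. Slc16a3 stood at 2.14 against 8.29 CPM (3.87-fold lower, 2.70 to 5.68) and Slc16a1 at 1.91 against 4.74 CPM (2.48-fold lower, 1.66 to 3.79), so both lactate carriers were the pair past 2-fold. Pkm (155 against 294 CPM), Eno1 (126 against 213), Pgam1 (144 against 238) and Pfkl (21.8 against 36.1) were 1.66- to 1.89-fold lower and Hif1a 1.40-fold, within the 2-fold limit. Of the hypoxia members Ddit4 was at 122 against 70.1 CPM (1.74-fold higher, 1.62 to 1.86), Bnip3l 1.31-fold higher, and Adm, Egln3, Ndrg1 and P4ha1 within 1.14-fold.

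Division genes also differed between the days. Of 15 division genes 13 were at least 2-fold lower at day 21 (425 against 1229 CPM in sum), and the dividing cluster 20 made up 147 of the 936 cells of day 7 and 62 of the 1793 of day 21. Its glycolysis sum was 5189 CPM at day 7 and 4524 CPM at day 21, against 2825 and 2708 in cluster 3 and 2738 and 2487 in cluster 5. Within cluster 20 alone 2 of 29 members were higher and 6 lower, with Pgk1 not left out and no share of all genes to set beside them. The hypoxia sum was lowest in the dividing cluster, at 633 and 675 CPM, against 852 to 994 CPM in the other 2. Within clusters 3, 5 and 20 the glycolysis medians were −0.34, −0.41 and −0.69 and the hypoxia medians −0.18, −0.02 and −0.03, where the median of all genes was −0.19, −0.13 and −0.13. Depth differed too, with median UMIs of 18930 and 8782 at days 7 and 21, and immediate early genes summed to 5841 and 7280 CPM. The part of division, makeup and depth in the member levels was not tested.

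**Figure D5:**
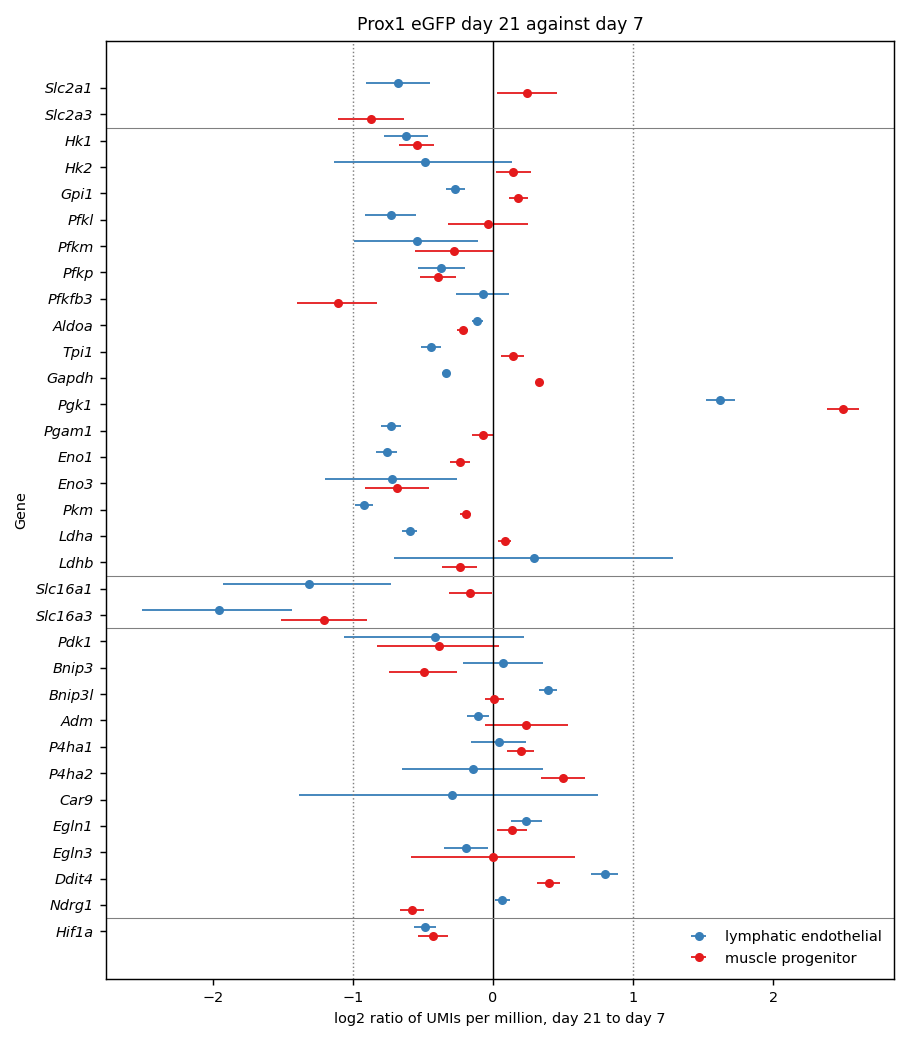
Log2 ratio of day 21 to day 7 of Prox1 eGFP for each member in lymphatic endothelium and in muscle progenitors, with exact conditional 95% intervals for counting error and dotted lines at 2-fold; genes with under 20 UMIs over both days are left out. In lymphatic endothelium most glycolysis members lie below 0 and most hypoxia members around it, and Pgk1 lies above 2-fold in both classes and is set aside in the text.

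Compared with all other cells of day 7, lymphatic endothelium had 7 members at least 2-fold higher and 10 lower, where 21.8% and 20.6% of genes were. The glycolysis list split 2 and 7, the hypoxia list 4 and 3. Leaving mature muscle out of the other cells gave 8 higher and 7 lower, and Aldoa turned from lower to higher. Adm was 10.7-fold (9.70 to 11.8), Egln3 10.3-fold (8.55 to 12.6), Ndrg1 2.99-fold and Hif1a 2.49-fold higher, with Car9, on 2 UMIs in the other cells, Pfkl (3.98-fold) and Pgam1 (2.35-fold). P4ha1, P4ha2 and Bnip3 were 2.82-, 5.51- and 3.01-fold lower, so members of the hypoxia list differed in direction in these cells. The other cells included mature muscle, with Bnip3 at 245 CPM. Once mature muscle was left out, the hypoxia list split 4 higher and 2 lower. Egln3 was found in 46.8% of cells at day 7 and 8.05% after thinning, against 1.37% and 0.287% of muscle progenitors.

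Muscle progenitors, named by Pax7, Myf5 and Myod1, filled most of both Prox1 eGFP libraries after B/T (3516 and 3365 cells). Between day 21 and day 7, 1 of 32 members was at least 2-fold higher (Pgk1, as above) and 2 were lower, where 3.96% and 9.67% of genes were. With TMM scaling 0 were lower. The pair were Slc16a3 (4.96 against 11.4 CPM, 2.30-fold, 1.87 to 2.85) and Pfkfb3 (5.81 against 12.5 CPM, 2.16-fold, 1.77 to 2.63), with Slc2a3 next at 9.02 against 16.5 CPM. The glycolysis median was −0.20 and the hypoxia median 0.07, against −0.23 for all genes. The makeup of the class differed, with clusters 1 and 2 holding 236 and 1532 cells at day 7 and 1877 and 133 at day 21. Taken alone, clusters 0 and 1 had 0 of 32 members lower, cluster 2 had 2 of 31 and cluster 15 had 4 of 30. Division genes summed to 458 CPM at day 21 against 171 CPM at day 7, with 10 of 15 higher. The part of makeup and division in the member levels was not tested. Levels differed among the clusters of the class. Cluster 15, led by Myog and Mymk, genes of differentiating and fusing muscle cells, had a glycolysis sum of 5458 CPM at day 7 and 9198 CPM at day 21, and the dividing cluster 23 had 5212 CPM at day 21, where the other clusters lay between 2781 and 3240 CPM. Hypoxia sums ran from 364 to 557 CPM in all of them.

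Set against the rest of day 7, muscle progenitors had 5 members at least 2-fold higher and 16 lower, where 14.7% and 27.5% of genes were, and 7 higher and 9 lower once mature muscle was left out. Slc2a3 was 15.9-fold (10.8 to 24.3), Slc16a1 5.37-fold and Hk2 4.11-fold higher, with P4ha2 3.03-fold and P4ha1 2.28-fold. Adm was 19.2-fold and Egln3 16.9-fold lower. Lymphatic endothelium makes up most of the other cells here, and muscle progenitors most of those in the lymphatic comparison, so the 2 comparisons largely mirror each other. Without mature muscle Eno3 and Pfkm turned from lower to higher, at log2 ratios of 1.53 and 0.60. Immediate early and dissociation genes summed to 38779.8 CPM in these cells at day 7 and 37609 CPM at day 21, and to 5812 CPM in the other cells of day 7; their part in the member levels was not tested.

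Related genes outside the members gave further context. Of 28 other hypoxia genes 26 could be compared between days in lymphatic endothelium, with 1 lower, Angptl4 (log2 ratio −1.13), 0 higher and a median of −0.12, while 0 of 22 genes of the mitochondrial cycle and respiration passed 2-fold in either direction (median −0.27). Of all genes 2.88% were higher and 6.71% lower there. In muscle progenitors 3 of 27 other hypoxia genes were lower, where 9.67% of all genes were. They were Epas1 (−1.56), Angptl4 (−1.54) and the angiogenic ligand Vegfa, which stood at 23.1 against 53.1 CPM. In neutrophils 8 of 28 were higher and 13 lower than in the other cells, where 12.9% and 50.9% of all genes were. Vegfa was at 70.7 CPM in neutrophils, its highest level among the classes. The respiration list had 0 of 22 genes past 2-fold in fibroblasts, tenocytes, macrophages and blood endothelium of Vegfc CRE against day 21. In lymphatic endothelium of day 7 against the other cells, Epas1, which encodes another alpha subunit of the factor, was at 106 CPM against 11.4 CPM. In blood endothelium it was at 333, 355 and 426 CPM, in Prox1 eGFP days 7 and 21 and Vegfc CRE in that order.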

How the data were processed

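The counts are UMIs per gene and cell barcode, deposited by the authors as filtered matrices of 4 libraries. They came from single-cell 3′ libraries, and per the submitters' processing notes Cell Ranger 5.0.1 and build mm10 were used. Gene lists differed between libraries, so the 27040 shared genes were used.

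Cells had to show 500 genes, 1000 UMIs and a mitochondrial share below 15%. Scrublet called 1, 0, 85 and 101 doublets in Prox1 eGFP days 0, 7 and 21 and Vegfc CRE, too few to have worked, so the highest scores were removed at 0.8% per 1000 cells (4, 190, 326 and 400 cells). All libraries were clustered together (scanpy 1.11.5, 2000 variable genes without the members and related lists, 30 components, 15 neighbours, Leiden resolution 1.0), giving 32 clusters. A cluster took a name with at least 4 markers that were 2-fold higher and found in 20% of its cells, and with the next class below 80% of its share of markers. The naming rule dates from after a first look at the clusters, and 6 of them stayed unnamed.

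UMIs were summed per class and library. Levels have exact Poisson intervals, shares exact Clopper-Pearson intervals and ratios exact conditional binomial intervals, all at 95% and for counting error only. A ratio against 0 UMIs uses a floor of 3 UMIs, scaled to all UMIs of the side that had 0. Shares of cells were also computed after thinning each cell to 2000 UMIs. TMM factors came from edgeR 4.0.16 in R 4.3.3. No test was run, since no group has a second library. Near-identical copies were counted by shared stretches of 75 bases. The ratio and counting steps were tested on simulated data.

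All 33 members may be named, and of each related list the 3 genes with the largest log2 ratio, plus Vegfa. Other genes named are the leading genes of clusters and markers of mature muscle and neutrophils, chosen after their values were seen. The members, lists and comparisons were chosen with earlier results of these data known. In all, 15 alternatives were planned, and others were added after seeing the data: leaving out Aldoa, Gapdh and Pgk1, single clusters, and comparisons without mature muscle.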

Additional observations from a re-analysis of the deposited data

Results flagged for a closer look

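UMIs appeared at 2 gene entries outside the shared gene list, which the comparisons above do not use. An additional entry with the symbol Aldoa (ENSMUSG00000114515) held 5 UMIs in Vegfc CRE and is not listed for Prox1 eGFP day 7. Pgk1-rs7 (ENSMUSG00000066632), a processed pseudogene, is listed only for Prox1 eGFP day 7 and held 34 UMIs there. Pgk1 itself stood at 38.0 CPM over all cells of that library and at 200.4, 147 and 211 CPM in Prox1 eGFP day 0, Prox1 eGFP day 21 and Vegfc CRE.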

How the results depend on the processing

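Across the 16 comparisons 180 member values were at least 2-fold apart. Of these, 167 stayed past 2-fold with the same sign under TMM scaling, 164 with cells weighted equally, 129 of 160 with a value after thinning, 162 of 176 under the stricter cell filter, 159 of 176 with Scrublet's own calls, 159 at resolution 2.0 and 119 of 140 with each library clustered alone. The cause of the changes below was not tested. Counts of higher members that moved by over 1.5 times follow. Without Aldoa, Gapdh and Pgk1, day 21 against day 7 had 0 in lymphatic endothelium, 0 in muscle progenitors and 1 in blood endothelium. Single clusters gave 2 in lymphatic cluster 20, 2 each in muscle progenitor clusters 0, 1, 2 and 15, 1 in blood endothelial cluster 19 and 2 in macrophage cluster 11. Blood endothelium between days had 0 after thinning and 1 with doublets kept, under Scrublet's calls and with libraries clustered alone. In Vegfc CRE against day 21, blood endothelium had 2 with doublets kept and under Scrublet's calls. Fibroblasts had 0 after thinning, 8 under the stricter filter, at resolution 2.0 and with the lists kept in the clustering, and 9 with doublets kept. Tenocytes had 2 under Scrublet's calls and at resolution 0.5, 7 at resolution 2.0 and 11 with libraries clustered alone, and macrophages 5 under Scrublet's calls and at resolution 2.0. Against other cells, neutrophils had 13 with TMM, macrophages 1 with cells weighted equally, thinned or clustered alone, and tenocytes 0 under Scrublet's calls and at both other resolutions.

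Counts of lower members moved as follows. Between days, lymphatic endothelium had 1 after thinning and with doublets kept and 6 in cluster 20; muscle progenitors had 0 with TMM and in clusters 0 and 1, 1 after thinning and 4 in cluster 15; blood endothelium had 1 with cells weighted equally and at a minimum of 50 UMIs, 0 after thinning and 5 at a minimum of 1 UMI. In Vegfc CRE against day 21, blood endothelium had 4 with cells weighted equally and 5 in cluster 10. Fibroblasts had 2 after thinning, with doublets kept and clustered alone. Tenocytes had 0 after thinning, 1 under the stricter filter and with the lists kept, and 4 clustered alone. Macrophages had 1 with cells weighted equally, after thinning and under Scrublet's calls, and 0 at resolution 2.0. Against other cells, fibroblasts had 7 under the stricter filter and with the lists kept and 8 with doublets kept and at resolution 2.0, tenocytes 11 with cells weighted equally and at resolution 0.5 and 12 under Scrublet's calls, muscle progenitors 9 without mature muscle and T/NK cells 4 after thinning.

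Log2 ratios that changed sign or fell to 0 were few. Egln3 in macrophages against other cells came to −0.18 with cells weighted equally, −0.98 with doublets kept, −1.15 under Scrublet's calls, −1.16 at resolution 2.0 and −0.96 clustered alone. Against day 21 it came to 0 after thinning, −1.39 with doublets kept, −1.22 under Scrublet's calls and −0.69 clustered alone. Car9 came to 0 in fibroblasts after thinning and in tenocytes under Scrublet's calls and at resolution 0.5. With doublets kept, Gapdh and Eno1 in fibroblasts came to 0.06 and 0.069. In tenocytes against other cells Eno3 came to −0.21, −0.24 and −0.42 and P4ha2 to −1.68 and −1.65 under Scrublet's calls, at resolution 0.5 and, for Eno3, at resolution 2.0. Between Vegfc CRE and day 21, Slc2a3 came to −0.12 in blood endothelium under Scrublet's calls and −0.074 in tenocytes at resolution 2.0, and Eno3 to −0.64 in fibroblasts clustered alone. Without mature muscle, Aldoa came to 0.12 in lymphatic endothelium, and Pfkm and Eno3 to 0.60 and 1.53 in muscle progenitors.

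The alternatives gave no value for blood endothelium between days under the stricter filter, or for muscle progenitors and T/NK cells with libraries clustered alone. No paired analysis was possible because each group is 1 library. Depth limits members with few UMIs, such as Slc2a3 and Slc16a3 in blood endothelium.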
